A study of Danio rerio with 24 samples.

Results

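The genes described here are 10 zebrafish genes of the antioxidant response that Nrf2 directs, namely nfe2l2a, keap1a, keap1b, gclc, gclm, nqo1, prdx1, srxn1, txnrd3 and hmox1a. They were listed by gene name and function and were followed over 24 livers. All 10 names were found among the 28210 genes of the count table, and 9 of them were among the 11801 genes with enough reads to be tested, that is, with more than 100 counts in at least 3 fish. The exception was srxn1, with 7 to 53 counts per fish. Livers came from 2-month-old fish of 4 genotypes, 6 fish each. Z+ fish carried Tg(lfabp:eGFP-T2A-ZAAT), in which the Z form of human alpha-1-antitrypsin is made together with eGFP. A+ fish carried Tg(lfabp:eGFP-T2A-AAT), in which the wildtype human protein is made in the same way. Z- and A- were the non-transgenic siblings of the ZAAT and the AAT line. Both transgenes were driven by the promoter of the liver fatty acid binding protein gene, so that the human protein was made by hepatocytes, the transgenic lines were kept heterozygous by crossing to TU wildtype fish, and the zebrafish antitrypsin genes were left in place in all 4 genotypes.

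Nrf2, the product of nfe2l2a in zebrafish, is a transcription factor that is held at a low level in unstressed cells, because the adaptor Keap1 hands it to a ubiquitin ligase for degradation. Oxidants and electrophiles modify cysteines of Keap1, Nrf2 then escapes degradation, enters the nucleus and, with a small Maf partner, switches on genes for glutathione synthesis, for the thioredoxin cycle, for quinone reduction and for haem breakdown. Hepatocytes carry a high load of oxidative protein folding in the endoplasmic reticulum, and Z antitrypsin is a folding variant that is retained there in patients. In this zebrafish model the paper reports no inclusion bodies of it in hepatocytes, and proposes that the misfolded protein is cleared. The Nrf2 protein is controlled mainly by its degradation, so its transcript level is not a measure of its activity.

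Levels are given as CPM, that is, counts scaled to a common library size, here with TMM scaling. Differences are log2 fold changes with their standard errors (SE) from edgeR's quasi-likelihood test, in 1 model of the 4 genotypes, and a gene is said to rise or fall where its p, adjusted over all 11801 genes, was under 0.05. Each liver gave between 33898825 and 44715713 reads on genes, a depth at which 3 counts stand for 0.0492 to 0.149 CPM. The transgene, a single entry for both human proteins, held 24326 to 331234 counts in Z+ and 94778 to 192578 in A+, against 5 to 274 in Z- and 9 to 236 in A-. All 8 hepatocyte markers were found in every fish, with a summed level of 36569 to 183920 CPM. The summed level of 6 intestinal markers was 138 to 3046 CPM in 5 fish (Z+ replicates 3 and 6, A+ replicates 5 and 6, and A- replicate 6) and at most 52.7 CPM in the other 19, and of these markers fabp6 and cdx1b were at 0 counts in 14 fish each. The 6 exocrine pancreas markers summed to 42.4 to 16601 CPM over all fish. The highest sums were 16601 in A+ replicate 1, 9440 in A- replicate 6, 6675 in Z- replicate 4, 6299 in Z+ replicate 5 and 5148 in Z+ replicate 3. Fits without the 5 fish with intestinal markers thus still hold fish with counts of another tissue. A- replicate 6 also had the highest sum of leukocyte markers, 120 CPM. The part of pancreas cells in the levels was not tested. Vitellogenin, the yolk precursor made by the female liver, took 51.6% of counts in Z+ replicate 5 and 49.2% in Z- replicate 2, and egg-cell markers summed to 1582 CPM in A+ replicate 2. These are called the 3 fish with vitellogenin or egg-cell counts, being above 2e+05 CPM of the first or 1000 CPM of the second. The other fish also held vitellogenin counts, up to 5.19% in A- replicate 1, and egg-cell markers of up to 104 CPM in A+ replicate 1. In bulk liver RNA, fewer cells of a type and less RNA per cell cannot be told apart.

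**Figure D1:**
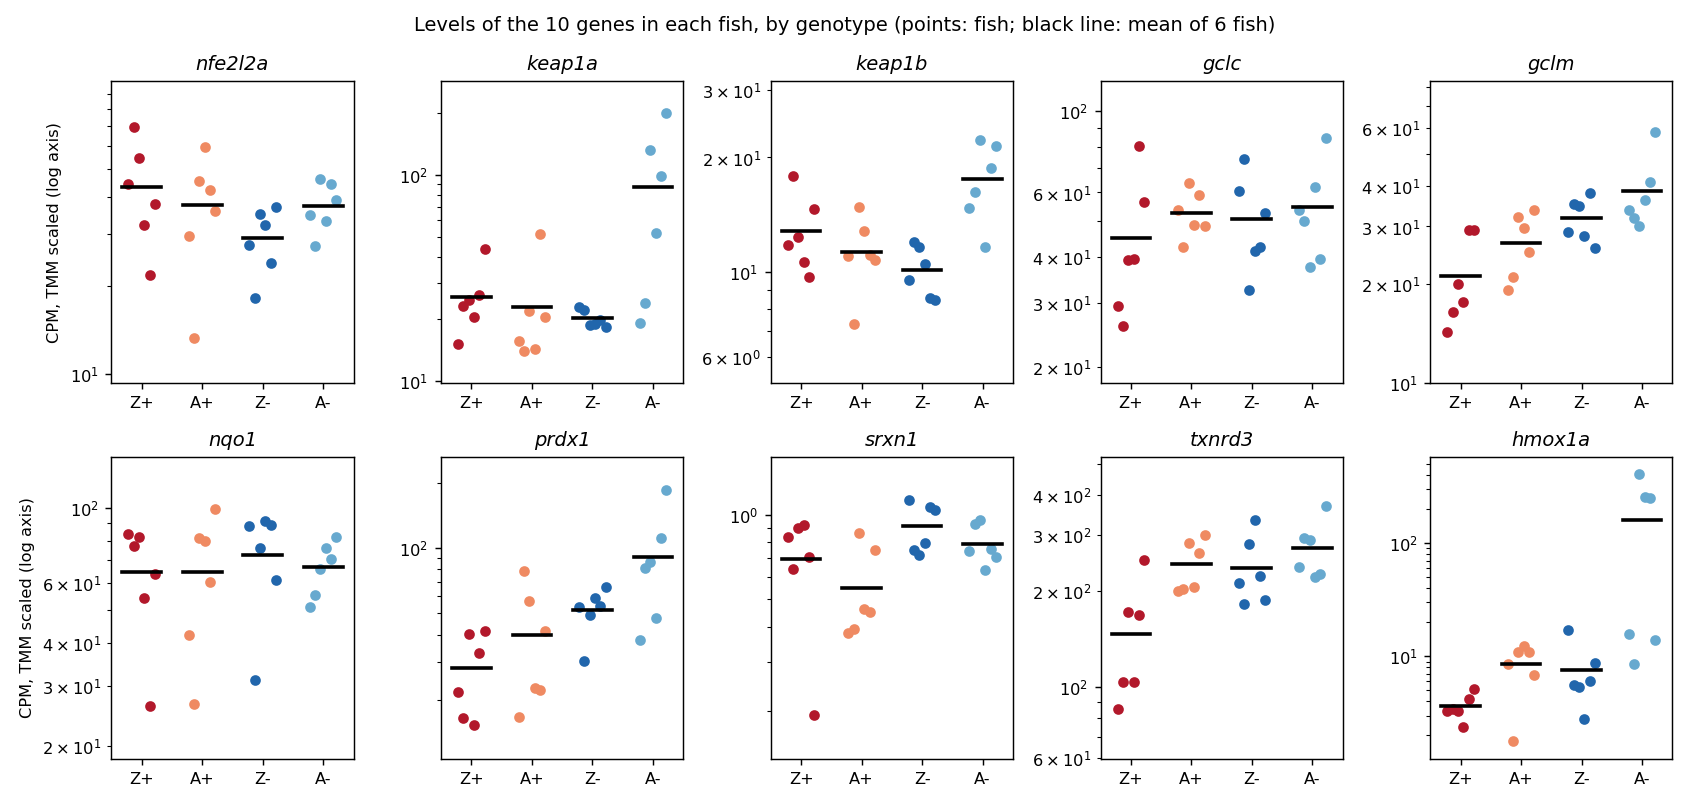
Level of each of the 10 genes in each fish, in CPM with TMM scaling on a log axis, for Z+, A+, Z- and A- from left to right, with 6 points per genotype (1 point a fish, in replicate order) and a black line at their mean. Of the 6 Z+ fish, 5 lie below every other fish for txnrd3, and 3 A- fish lie at 251 to 407 CPM for hmox1a, above the other 21 fish.

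Before the single genes, the counts over the 9 tested members were as follows. Between Z+ and A+, 1 member (txnrd3) fell and 0 rose, where 5.92% of all tested genes fell and 5.91% rose. At an unadjusted p under 0.05 there was also 1, where 27.7% of all tested genes had such a p. Between Z+ and Z-, 0 of 9 members passed the threshold by edgeR, beside 5.17% of all genes that fell and 7.00% that rose. In that comparison 3 members (gclm, txnrd3 and prdx1, all with negative log2 fold changes) had an unadjusted p under 0.05, as had 29.1% of all genes. DESeq2 called 2 members and 18.3% of all genes, and limma's voom with sample weights called 3 members and 26.0% of all genes, in either direction. The members called were all lower in Z+. Over all genes, 927 of 11715 were called lower by DESeq2 and 1457 of 11801 by voom. Whether the 9 members depart from these shares was not tested. Against the non-transgenic fish, taken as the mean of Z- and A-, 4 members (hmox1a, txnrd3, prdx1 and gclm) fell in Z+ and 0 rose, where 7.66% of all genes fell and 9.16% rose. Between A+ and A-, 3 members (hmox1a, keap1a and keap1b) fell and 0 rose, beside 4.86% and 5.27% of all genes. Between Z- and A-, which differ in line and not in transgene, hmox1a, keap1a and keap1b fell and 0 members rose, beside 0.720% and 0.449% of all genes. The comparisons share fish: Z+ enters 3 of them and A- enters 3.

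The median log2 fold change of the 9 members was -0.23 in Z+ against A+, where the median of all tested genes was -0.02. It was -0.17 in Z+ against Z- (all genes 0.03), -0.72 in Z+ against the non-transgenic fish (all genes 0.03), -0.53 in A+ against A- (all genes 0.005) and -0.37 in Z- against A- (all genes -0.01). In none of these 5 comparisons did a member rise by edgeR's test.

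**Figure D2:**
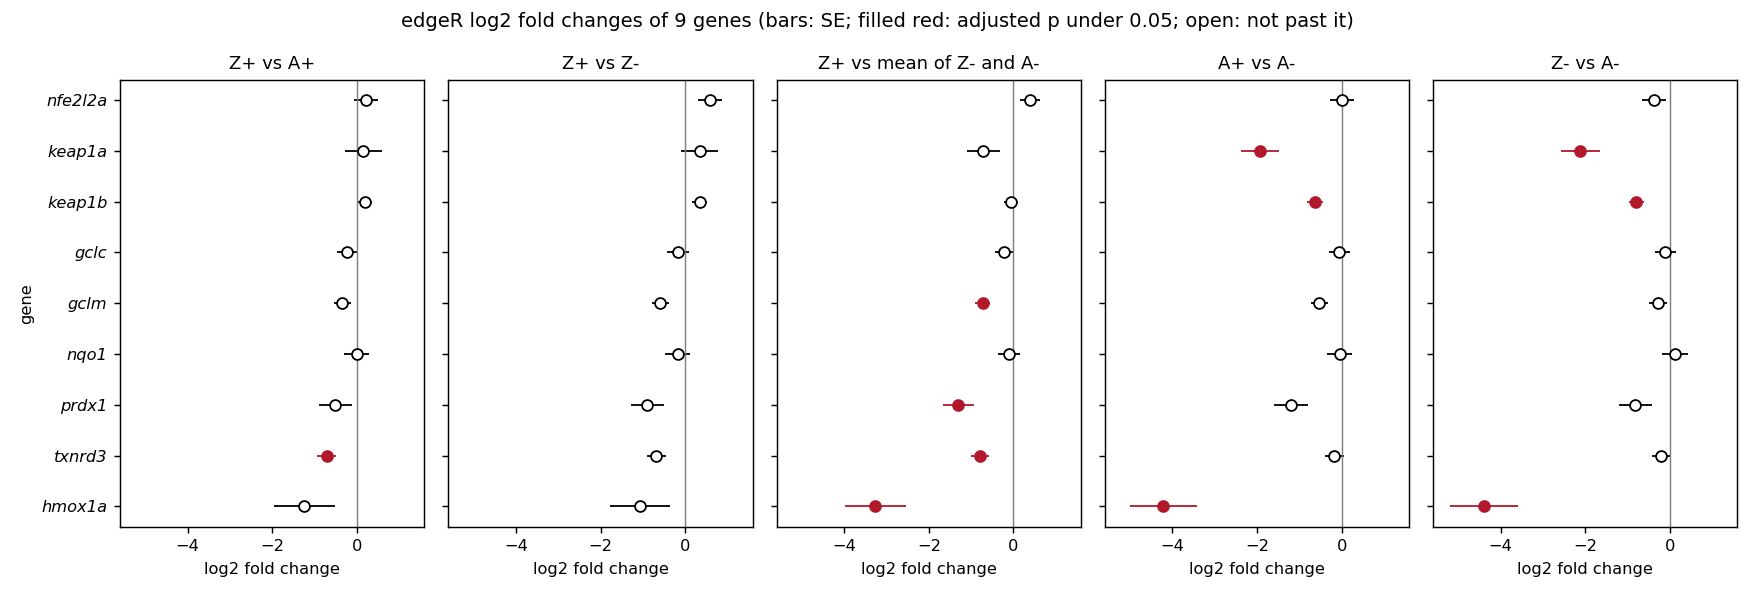
Log2 fold change of the 9 tested genes in 5 comparisons (x axis), with bars of 1 SE from edgeR. Filled red points passed an adjusted p under 0.05 over all tested genes and open points did not, and every filled point lies to the left of 0, from -0.63 for keap1b to -4.39 for hmox1a.

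The gene at the head of the pathway, nfe2l2a, passed no comparison. Its level had a lowest value of 21.8, a median of 41.2 and a highest value of 69.8 CPM in Z+, against 13.3, 39.2 and 59.2 CPM in A+, 18.2, 29.8 and 37.2 CPM in Z-, and 27.4, 36.9 and 46.1 CPM in A-. The genotypes overlapped, although 4 of 6 Z+ fish lay above the highest Z- fish. The log2 fold change was 0.58 (SE 0.28, adjusted p = 0.178) in Z+ against Z-, and 0.21 (SE 0.28, adjusted p = 0.680) in Z+ against A+. The lowest fish of Z+, A+ and Z- were Z+ replicate 5, A+ replicate 2 and Z- replicate 2, the 3 fish with vitellogenin or egg-cell counts. Without these 3 fish, nfe2l2a was higher in Z+ than in Z- by 0.62 (log2, adjusted p = 0.0452). The rise over the non-transgenic fish was then 0.48 (log2, adjusted p = 0.0492). This setting was added after the data were seen. Of the 11 alternatives it was the only 1 in which either value passed, and 0 of the 24 fits without 1 fish did. Over all genes, 1269 and 1652 of 11538 rose in this setting, in the same order.

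Zebrafish have a pair of Keap1 genes. The level of keap1a, which encodes one of the copies of the adaptor that holds Nrf2 back, was 15.1, 23.2, 24.8, 20.3, 26.1 and 43.5 CPM in Z+ replicates 1 to 6. In A+ it was 15.6, 14.0, 21.9, 14.3, 51.5 and 20.4 CPM, in Z- it was 23.0, 22.2, 18.6, 18.9, 19.8 and 18.3 CPM, and in A- it was 19.0, 23.8, 132, 52.3, 98.1 and 199 CPM. The Z- fish lay close together, and 4 of the 6 A- fish stood above every A+ and every Z- fish, with replicate 2 also above every Z- fish. By edgeR keap1a fell by 1.93 on the log2 scale in A+ against A- (SE 0.45, adjusted p = 0.0148), a 3.81-fold lower level. In Z- against A- it fell by 2.12 (SE 0.46, adjusted p = 0.0198), a 4.34-fold lower level. Neither Z+ against A+ (0.15 log2, SE 0.44, adjusted p = 0.854) nor Z+ against Z- (0.34 log2, SE 0.44, adjusted p = 0.663) passed.

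The highest keap1a level of Z+, of A+ and of A- was each in a fish with intestinal markers, Z+ replicate 6, A+ replicate 5 and A- replicate 6. Z+ replicate 3 had a summed intestinal marker level of 1392 CPM and 24.8 CPM of keap1a, whereas A- replicate 3 had 12.5 CPM of these markers and 132 CPM of keap1a. Without the 5 fish, keap1a fell by 1.97 (log2, adjusted p = 0.00953) in A+ against A- and by 1.70 (log2, adjusted p = 0.0343) in Z- against A-. The call of A+ against A- was lost with voom (adjusted p = 0.0786) and when only these genotypes were fitted (adjusted p = 0.0820). The call of Z- against A- was lost with voom (adjusted p = 0.0662), with vitellogenin as a covariate (adjusted p = 0.0642), and when Z- replicate 4, 5 or 6 or A- replicate 3 or 6 was left out (adjusted p of 0.0512 to 0.0580). It was also lost with a replicate block, that is, with the replicate number as a term of the model.

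The second copy, keap1b, fell in A+ and in Z- against A- as well. It had a lowest value of 9.73, a median of 12.1 and a highest value of 17.9 CPM in Z+, 7.30, 11.1 and 14.9 CPM in A+, 8.44, 10.0 and 12 CPM in Z-, and 11.6, 17.5 and 22.2 CPM in A-. In A-, 4 of 6 fish lay above the highest A+ fish and 5 of 6 above the highest Z- fish, with A- replicate 4 the lowest. It fell by 0.63 (log2, SE 0.18, adjusted p = 0.0319) in A+ against A-, and by 0.79 (log2, SE 0.18, adjusted p = 0.0345) in Z- against A-. Both calls were lost without the 5 fish with intestinal markers (adjusted p = 0.145 and 0.132), and both were lost with a replicate block. The call of A+ against A- was also lost with library totals, with voom and with only these genotypes (adjusted p of 0.0606 to 0.102), and that of Z- against A- with no filter, with filterByExpr and with vitellogenin as a covariate (adjusted p of 0.0508 to 0.0775). Leaving out A+ replicate 1 or 2 or A- replicate 3, 5 or 6 gave adjusted p of 0.0503 to 0.0829 for A+ against A-, and leaving out Z- replicate 1, 4, 5 or 6 or A- replicate 3, 5 or 6 gave 0.0552 to 0.0895 for Z- against A-.

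In the interaction, which asks whether the difference of Z+ from Z- is unlike that of A+ from A-, 0 of 9 members passed by edgeR, beside 0.449% of all genes with a positive and 0.0763% with a negative value. At an unadjusted p under 0.05, which 21.4% of all genes had, there were 3 members, keap1a (2.27 log2, adjusted p = 0.0723), keap1b (0.98 log2, adjusted p = 0.0690) and hmox1a (3.15 log2, adjusted p = 0.0951). DESeq2 called 3 members, beside 8.05% of all genes, and voom called 1, beside 4.03%. Without the 3 fish with vitellogenin or egg-cell counts, keap1b passed (1.00 log2, adjusted p = 0.0302), a setting in which 386 of 11538 genes had a positive and 153 a negative call.

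Glutathione, the main small thiol of the cell, is made from cysteine in a first step by glutamate-cysteine ligase, whose catalytic subunit is encoded by gclc and whose modifier subunit, which raises the activity of the catalytic one, is encoded by gclm. The transcript of the modifier subunit, gclm, fell in Z+ against the non-transgenic fish. Its level was 14.2, 16.4, 20.0, 17.6, 29.3 and 29.4 CPM in Z+ replicates 1 to 6, against a lowest value of 19.2, a median of 27.4 and a highest value of 33.8 CPM in A+, 25.8, 31.8 and 37.9 CPM in Z-, and 30.1, 35.0 and 58.4 CPM in A-. Of the 6 Z+ fish, 4 lay below all 12 non-transgenic fish, and the exceptions were replicates 5 and 6, the first with vitellogenin and the second with intestinal markers. Z+ replicate 3, also with intestinal markers, was among those 4. Against the non-transgenic fish gclm fell by 0.73 (log2, SE 0.18, adjusted p = 0.00748), a 1.65-fold lower level. That call held in all 11 alternatives and in all 24 fits that left out 1 fish, with log2 fold changes of -0.88 to -0.63.

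Against Z- alone the log2 fold change of gclm was -0.59 (SE 0.20, adjusted p = 0.0586), which did not pass by edgeR. It passed with DESeq2 (adjusted p = 0.0266), with voom (adjusted p = 0.0110), without the 5 fish with intestinal markers (-0.71, adjusted p = 0.0479) and without the 3 fish with vitellogenin or egg-cell counts (-0.67, adjusted p = 0.0316). Leaving out Z+ replicate 5, Z+ replicate 6, A+ replicate 2 or A- replicate 6 also brought it past the threshold, the lowest adjusted p of the 24 fits being 0.0220. Against A+ it was -0.34 (SE 0.20, adjusted p = 0.284), and A+ against A- gave -0.53 (SE 0.20, adjusted p = 0.0950). The means of the 4 genotypes were ordered 21.2 ± 6.61 CPM in Z+, 26.8 ± 5.99 CPM in A+, 31.8 ± 4.81 CPM in Z- and 38.5 ± 10.4 CPM in A- (SD, n = 6 each), and neither pair of neighbours that was tested (Z+ against A+, and Z- against A- with an adjusted p of 0.580) differed beyond the spread by edgeR.

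The gene of the catalytic subunit passed no comparison. The level of gclc had a lowest value of 25.9, a median of 39.4 and a highest value of 80.2 CPM in Z+, against 42.7, 51.4 and 63.6 CPM in A+, 32.5, 47.7 and 74.2 CPM in Z-, and 37.6, 52.0 and 84.6 CPM in A-. Of the Z+ fish, 4 lay below every A+ fish and 1, replicate 5, the fish with vitellogenin, lay above every A+ fish, so the genotypes overlapped. The log2 fold change was -0.23 (SE 0.25, adjusted p = 0.606) against A+ and -0.17 (SE 0.25, adjusted p = 0.720) against Z-. Without Z+ replicate 5 it was -0.48 (adjusted p = 0.171) against A+ and -0.42 (adjusted p = 0.223) against Z-, and without the 3 fish with vitellogenin or egg-cell counts it was -0.52 (adjusted p = 0.117) and -0.27 (adjusted p = 0.426). Whether the subunits of this enzyme responded differently was not tested.

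The transcripts of both subunits varied together among the fish. After each genotype's mean was removed from log2 CPM, gclc and gclm had a Pearson r of 0.59 and a Spearman rho of 0.49 over 24 fish, with permutation p of 0.00805 and 0.0243, and of 0.0241 and 0.0364 after adjustment over the 3 relations computed. Without the 2 fish farthest from the median of gclc, Z+ replicate 5 and A- replicate 6, r was 0.38, so the relation rested in part on those fish. Within genotypes of 6 fish r was 0.92 in Z+, 0.26 in A+, -0.15 in Z- and 0.72 in A-.

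The thioredoxin cycle hands electrons from NADPH to peroxides. Thioredoxin reductase keeps thioredoxin reduced, thioredoxin reduces peroxiredoxins, and peroxiredoxins reduce peroxides. The reductase gene txnrd3 gave the one call between Z+ and A+ among the members. Its level was 85.3, 104, 171, 104, 169 and 250 CPM in Z+ replicates 1 to 6. In A+ it was 200, 203, 281, 206, 263 and 298 CPM, in Z- it was 212, 182, 280, 334, 222 and 187 CPM, and in A- it was 237, 293, 289, 221, 226 and 368 CPM. Of the 6 Z+ fish, 5 lay below all 18 fish of the other genotypes, and the exception, replicate 6, was within the range of each of them. Z+ replicate 6 was 1 of the fish with intestinal markers, as was A- replicate 6, the highest of all 24 for this gene. Z+ replicate 3, with 1392 CPM of these markers, was among the 5 low Z+ fish, at 171 CPM of txnrd3.

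In Z+ against A+, txnrd3 fell by 0.72 (log2, SE 0.23, adjusted p = 0.0454), a 1.64-fold lower level. Against Z- the log2 fold change was -0.68 (SE 0.23, adjusted p = 0.0533), which did not pass, and against the non-transgenic fish it fell by 0.79 (log2, SE 0.20, adjusted p = 0.0103). Between A+ and A- (-0.17, SE 0.23, adjusted p = 0.676) and between Z- and A- (-0.20, SE 0.23, adjusted p = 0.762) it did not pass. Without the 5 fish with intestinal markers, the log2 fold change was -0.96 (adjusted p = 0.0177) against A+, -1.03 (adjusted p = 0.00887) against Z- and -1.08 (adjusted p = 0.00252) against the non-transgenic fish, and the mean was 115 ± 36.6 CPM in 4 Z+ fish, 223 ± 39.3 CPM in 4 A+ fish, 236 ± 59.4 CPM in 6 Z- fish and 253 ± 35.0 CPM in 5 A- fish.

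The call of txnrd3 between Z+ and A+ stood close to the threshold. Over the 24 fits that left out 1 fish its log2 fold change ran from -0.93 to -0.60 and its adjusted p from 0.0115 to 0.0997. It was lost in 13 of them, namely without Z+ replicate 1, 2, 3 or 4, A+ replicate 3, 5 or 6, Z- replicate 1, 3 or 5, or A- replicate 1, 2 or 5. With vitellogenin as a covariate the adjusted p was 0.0511, and with only Z+ and A+ in the model it was 0.134. The fall against the non-transgenic fish held in all 11 alternatives and all 24 fits, and against Z- the gene passed in 8 of 11 alternatives, DESeq2 (adjusted p = 0.0172) and voom (adjusted p = 0.00867) among them.

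The peroxiredoxin gene prdx1 encodes an abundant cytosolic enzyme that reduces hydrogen peroxide. Its level was 21.8, 16.5, 40.1, 15.3, 33.0 and 41.6 CPM in Z+ and 16.7, 78.1, 57.4, 22.7, 22.3 and 41.6 CPM in A+. In Z- it was 53.3, 30.1, 49.3, 58.8, 54.3 and 66.4 CPM, and in A- it was 37.7, 80.7, 86.4, 47.7, 111 and 185 CPM. Of the Z- fish, 5 of 6 lay above every Z+ fish, and Z- replicate 2, with vitellogenin, was the exception. The A+ fish spread over the ranges of Z+ and of Z-, with replicate 2, which held the egg-cell counts, the highest of them.

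Against the non-transgenic fish prdx1 fell by 1.30 in Z+ (log2, SE 0.36, adjusted p = 0.0150), a 2.46-fold lower level, and that call held in all 11 alternatives and all 24 fits (log2 fold changes of -1.50 to -1.13). Against Z- alone it was -0.89 (SE 0.39, adjusted p = 0.132), with a passing value with voom (adjusted p = 0.0215) and with only these genotypes in the model (adjusted p = 0.0469). Against A+ it was -0.51 (SE 0.39, adjusted p = 0.426), with -1.03 (adjusted p = 0.151) without the 5 fish with intestinal markers, -0.25 (adjusted p = 0.707) without the 3 fish with vitellogenin or egg-cell counts and -0.20 (adjusted p = 0.771) without A+ replicate 2. A+ stood 2.30-fold below A- (adjusted p = 0.0540), with adjusted p of 0.0210 by DESeq2, 0.0213 by voom and 0.0411 with vitellogenin as a covariate. That value of prdx1 depended on single fish, since without A+ replicate 2, A+ replicate 3, A- replicate 1 or A- replicate 4 the adjusted p was 0.0198 to 0.0468, whereas without the 5 fish with intestinal markers the log2 fold change was -0.72 (adjusted p = 0.274). The highest A- fish for prdx1, replicate 6, was also the one with the most intestinal marker counts of all fish, 3046 CPM. The part of these other cells in the level of prdx1 was not tested.

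Sulfiredoxin, encoded by srxn1, repairs peroxiredoxins whose active cysteine has been over-oxidised. In these livers srxn1 was close to the limit of detection, with 0.194 to 0.915 CPM in Z+, 0.379 to 0.862 CPM in A+, 0.718 to 1.12 CPM in Z- and 0.634 to 0.959 CPM in A-. The lowest of all fish, at 7 counts, was Z+ replicate 6. By two-sided exact permutation tests on log2 CPM, outside the fit, A+ minus A- was -0.56 (p = 0.0346, 0.139 after adjustment over the 4 comparisons of this gene), with 4 of 6 A+ fish below every A- fish. Z+ minus A+ was 0.26 (exact p = 0.554), Z+ minus Z- was -0.50 (exact p = 0.126) and Z- minus A- was 0.20 (exact p = 0.197). The smallest p that 6 fish against 6 allow is 0.0022. Over 24 fish with genotype means removed, prdx1 and srxn1 gave a Pearson r of 0.01 and a Spearman rho of 0.14 (permutation p = 0.964 and 0.541, with the same values after adjustment), and r was 0.03 without the 2 fish farthest from the median of prdx1.

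NAD(P)H quinone dehydrogenase, encoded by nqo1, reduces quinones and is among the genes most used as a readout of Nrf2. It passed no comparison, with a lowest value of 26.1, a median of 70.5 and a highest value of 83.8 CPM in Z+, against 26.5, 70.2 and 98.8 CPM in A+, 31.2, 82.1 and 91.7 CPM in Z-, and 51.1, 68.2 and 82.1 CPM in A-. The lowest fish of Z+, A+ and Z- were once more Z+ replicate 5, A+ replicate 2 and Z- replicate 2. The log2 fold change was -0.01 (SE 0.30, adjusted p = 0.988) in Z+ against A+ and -0.17 (SE 0.30, adjusted p = 0.760) in Z+ against Z-. Its sign in Z+ against A+ turned with several alternatives, up to 0.22 with vitellogenin as a covariate.

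Haem oxygenase, the product of hmox1a, breaks haem down to biliverdin, carbon monoxide and iron, and its gene is repressed by Bach1 as well as activated by Nrf2. It varied more between fish than any other member, the highest fish being 230-fold above the lowest. The level was 3.29, 3.41, 3.29, 2.37, 4.20 and 5.14 CPM in Z+ replicates 1 to 6, 8.58, 1.77, 10.8, 12.2, 10.9 and 6.91 CPM in A+, 17.0, 5.58, 5.33, 2.77, 6.05 and 8.69 CPM in Z-, and 15.8, 8.56, 407, 258, 251 and 14.1 CPM in A-. A- replicates 3, 4 and 5 thus stood far above all other fish, and A- replicates 1, 2 and 6 lay within the combined range of the A+ and Z- fish.

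By edgeR hmox1a fell by 4.22 (log2, SE 0.79, adjusted p = 0.00506) in A+ against A-, by 4.39 (log2, SE 0.80, adjusted p = 0.00480) in Z- against A-, and by 3.26 (log2, SE 0.72, adjusted p = 0.00323) in Z+ against the mean of Z- and A-. All 3 comparisons hold A- on the other side, so all 3 draw on A- replicates 3, 4 and 5. The log2 fold change stayed at -4.47 to -3.65 in A+ against A- when any 1 of the A- fish was left out, and at -4.64 to -3.86 in Z- against A-. In A- replicates 3, 4 and 5 the 6 intestinal markers summed to 7.41 to 12.5 CPM and the 7 macrophage and leukocyte markers to 38.1 to 46.5 CPM, beside 27.9 to 120 CPM in A- replicates 1, 2 and 6. The 6 erythrocyte markers summed to 249 to 567 CPM in A- replicates 3, 4 and 5 and to 214 to 348 CPM in the other A- fish. The call of A+ against A- was lost with only these genotypes in the model (adjusted p = 0.0519), and that of Z- against A- with a replicate block (adjusted p = 0.0502). The call of Z+ against the non-transgenic fish held in all 11 alternatives and 24 fits, none of which left out A- replicates 3, 4 and 5 together. Every listed marker of macrophages and leukocytes and of erythrocytes was above 0 counts in all 24 fish. The lowest values were as small as 2 counts for mpx, 4 for hbaa2 and 5 for hbba2, so presence alone says little about these cells.

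Between Z+ and A+ hmox1a was -1.24 (log2, SE 0.71, adjusted p = 0.268), although 5 of 6 A+ fish lay above every Z+ fish, and the exception, A+ replicate 2, lay below all of them. Between Z+ and Z- it was -1.07 (log2, SE 0.71, adjusted p = 0.342), with 5 of 6 Z- fish above every Z+ fish. The Z+ fish lay close together, at 3.62 ± 0.95 CPM (SD, n = 6), against 8.54 ± 3.82 CPM in A+ and 7.56 ± 4.97 CPM in Z- (SD, n = 6 each). When only Z+ and A+ were in the model, so that the spread of A- did not enter, the adjusted p was 0.0898, and with only Z+ and Z- it was 0.0577.

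**Figure D3:**
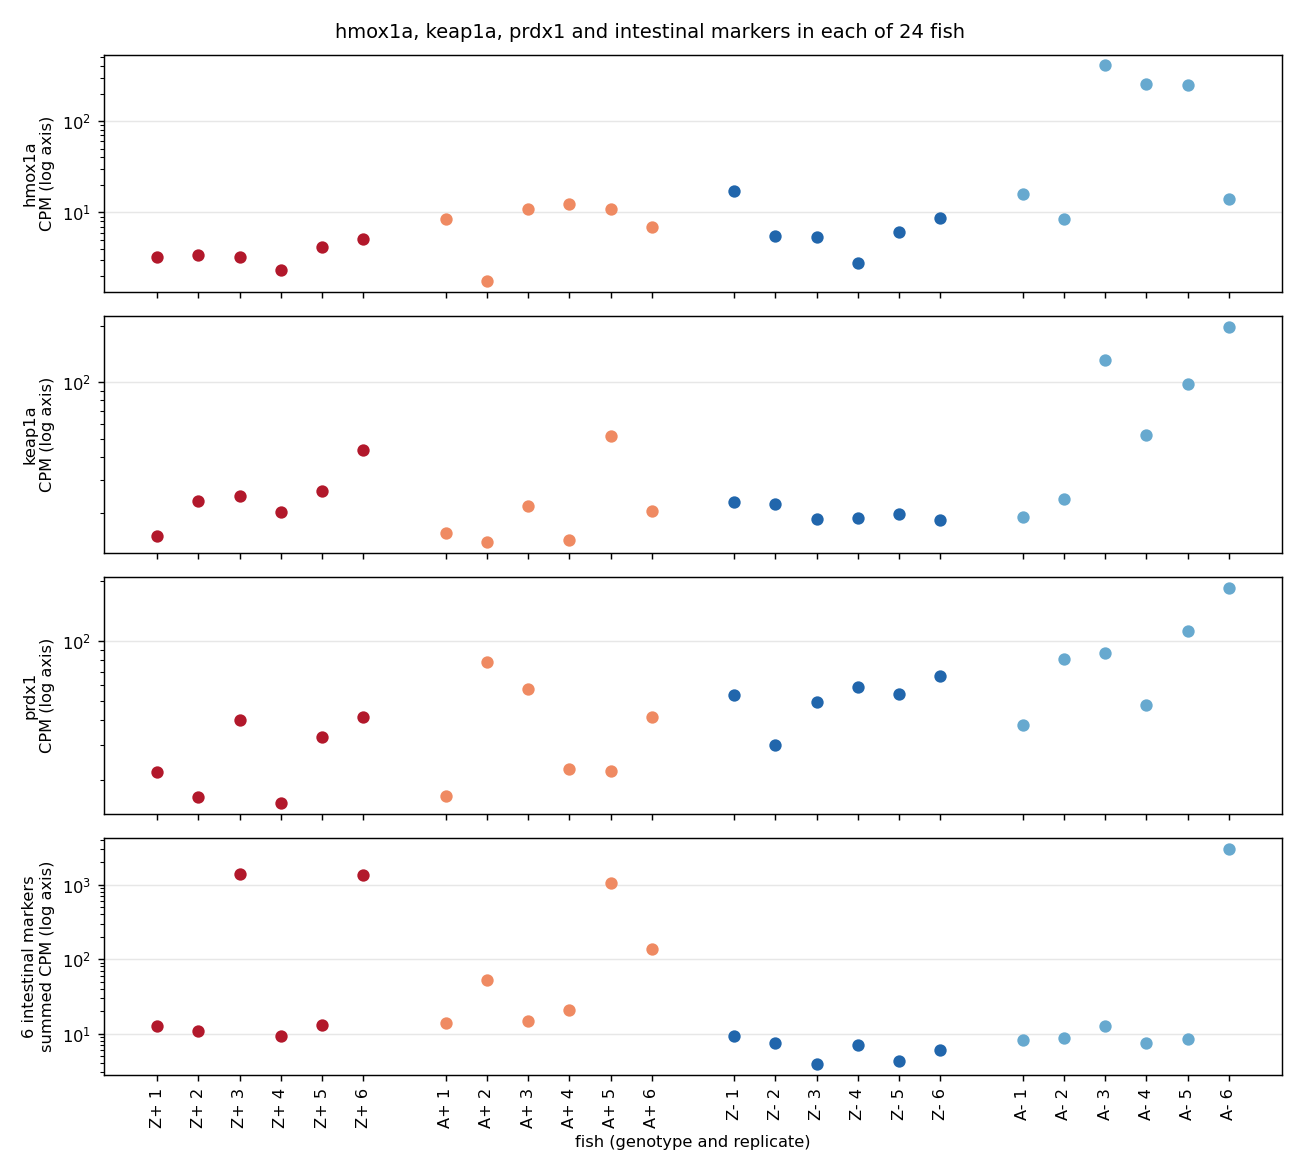
Level of hmox1a, keap1a and prdx1 and the summed level of the 6 intestinal markers, each in CPM on a log axis, in every one of the 24 fish (x axis, by genotype and replicate, Z+ to A- from left to right, 1 point a fish). A- replicates 3, 4 and 5 are the highest for hmox1a (251 to 407 CPM), A- replicates 3 to 6 for keap1a (52.3 to 199 CPM), and the intestinal markers are above 100 CPM in 5 fish only.

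Across the 10 members, the highest of all 24 fish was an A- fish for 7 genes and a fish of each other genotype for 1 gene, and the lowest was a Z+ fish for 6 genes and an A+ fish for 4. This tally was not made over all genes and includes srxn1, close to the limit of detection, so it gives no order of the genotypes for the pathway. Single fish recurred among the highest and lowest. A- replicate 6 was the highest of all 24 fish for 5 of the 10 (keap1a, gclc, gclm, prdx1 and txnrd3), and A+ replicate 2 was the lowest of all 24 for 4 (nfe2l2a, keap1a, keap1b and hmox1a). Both are fish with counts of other tissues. A+ replicate 2 also had the highest TMM factor, 1.75, against 0.593 to 1.21 in the other fish. A higher factor lowers the CPM. Before scaling, A+ replicate 2 held 811, 851, 445 and 108 counts of these 4 genes, where the lowest counts of all fish were 366, 446, 241 and 101. A+ replicate 2 also had the lowest sum of hepatocyte markers of all fish, 36569 CPM. A- replicate 6 had 67321 CPM of them, where the median of all fish was 121170 CPM. The part of the scaling and of other tissues in these ranks was not tested. Between members, the highest Spearman correlations over 24 fish with genotype means removed were 0.60 for gclm with txnrd3, 0.59 for nfe2l2a with nqo1, 0.58 for prdx1 with txnrd3 and 0.55 for nfe2l2a with keap1b. These are descriptions, and the points share libraries and their scaling. The pair of Keap1 copies gave a Pearson r of 0.43 and a Spearman rho of 0.52 (permutation p = 0.0802 and 0.0199, adjusted 0.120 and 0.0364), with r of 0.35 without the 2 fish farthest from the median of keap1a and of 0.30 in Z+, 0.22 in A+, 0.22 in Z- and 0.69 in A-.

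For each tested member, the genes outside the antioxidant lists whose level followed it most closely over the 24 fish were found by the same Spearman correlation, with the 2 highest named among genes that have more than a clone name. A gene with a clone name was left out above those given for nfe2l2a. They were pxmp2 and usp6nl for nfe2l2a (0.85 each), ugdh and cant1b for keap1a (0.83 and 0.81), and myo18aa and enpp6 for keap1b (0.93 and 0.85). For gclc they were nfya and traf6 (0.84 and 0.83), for gclm dnajc5ab and sptssa (0.84 and 0.81), and for prdx1 fbxo44 and ostf1 (0.80 and 0.78). For txnrd3 they were nipa2 and inpp5d (0.86 and 0.80), for hmox1a cyp4t8 and fgg (0.83 and 0.79), and for nqo1 ephx5 (0.90) and a gene listed as COX7A2, 1 of many (0.89). Among these, ugdh encodes the enzyme that makes UDP-glucuronic acid, nfya a subunit of the transcription factor NF-Y, and fgg the gamma chain of fibrinogen. All were picked by value as the highest among the tested genes, so high correlations follow from the choice itself. The fish with counts of other tissues were included, and no relation of these genes to the members was tested.

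A wider list of 65 genes of this response, its control and related functions was followed for comparison, of which 61 matched the table by symbol and 53 were tested. Not all are targets of Nrf2, and some, such as the Bach1 genes, act against it, so its counts and medians are not those of 1 response. It holds partners of Nrf2, glutathione genes, thioredoxins and peroxiredoxins, genes of NADPH supply, enzymes against superoxide and peroxide, and genes of haem, iron and carbonyl metabolism. In Z+ against A+, 2 of the 53 rose and 0 fell, where 5.91% of all genes rose and 5.92% fell. In Z+ against Z-, 1 rose and 3 fell (all genes 7.00% and 5.17%), and against the non-transgenic fish 0 rose and 4 fell (all genes 9.16% and 7.66%), so in these comparisons the list was near or below the share over all genes. A+ against A- gave 0 that rose and 11 that fell (all genes 5.27% and 4.86%). That count was 2 with library totals, 3 with only these genotypes in the model and 4 without the 5 fish with intestinal markers. Calls over all genes were fewer for falls there as well: 353 higher and 191 lower of 11801 with library totals, and 35 and 114 of 10766 with only these genotypes. Without the 5 fish they were 944 and 419 of 11164. In Z- against A-, 0 passed by edgeR, with 14 at an unadjusted p under 0.05 (all genes 14.6%), 5 by DESeq2 (5.63%) and 2 by voom (2.70%). In the interaction 0 passed by edgeR, with 10 at an unadjusted p under 0.05 (21.4%), 4 by DESeq2 (8.05%) and 0 by voom (4.03%). The median log2 fold change of the 53 was 0.22 in Z+ against A+, -0.10 in Z+ against Z-, -0.15 in Z+ against the non-transgenic fish, -0.47 in A+ against A- and -0.08 in Z- against A-.

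**Figure D4:**
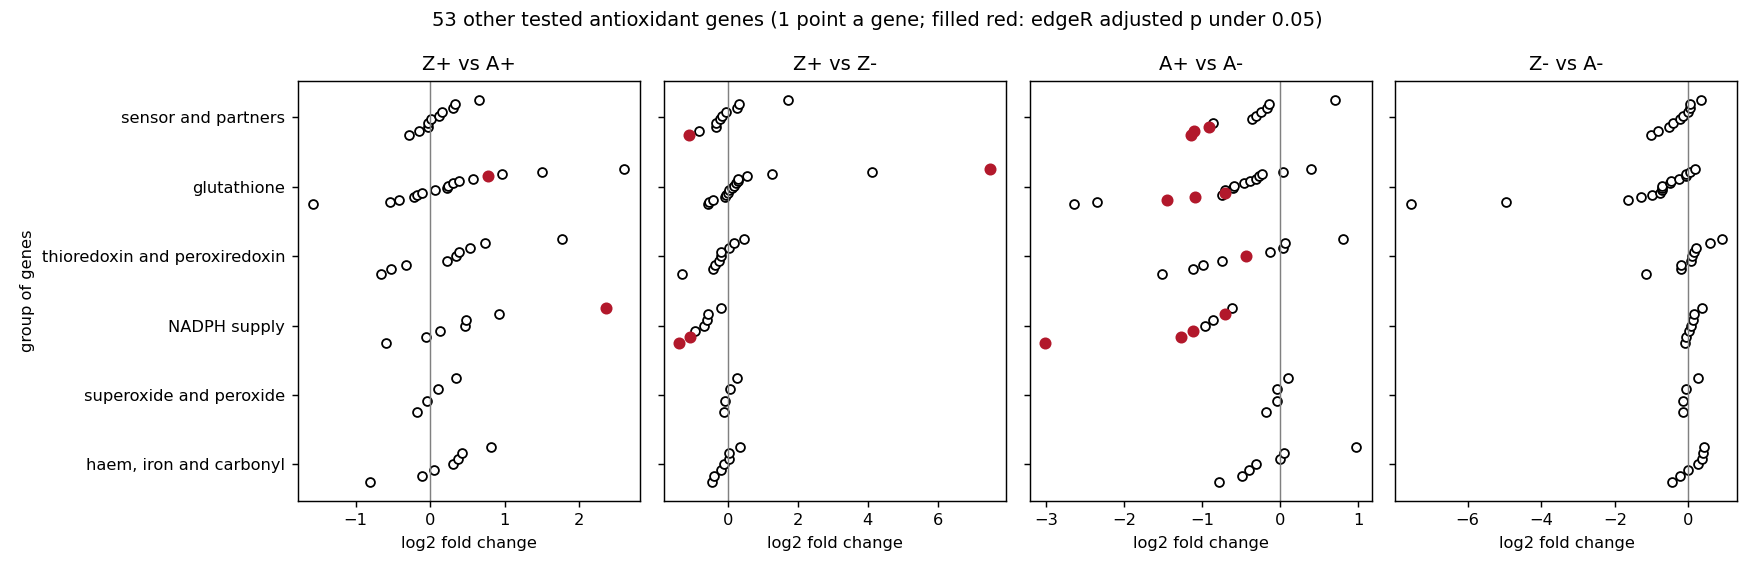
Log2 fold change (x axis, whose range differs between panels) of the 53 tested genes of the wider list, 1 point a gene, by group of genes (rows), in 4 comparisons. Filled red points passed an adjusted p under 0.05 by edgeR, and most of them, 11, lie in A+ against A-, 4 of these among the 7 genes of the NADPH supply group.

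Thioredoxin reductase, glutathione reductase and nqo1 all draw on NADPH, so genes of the pathways that supply NADPH are given next. Not all of them, pgls for one, encode an enzyme that itself makes NADPH. Of the 7 tested, 4 fell in A+ against A- (me1 and pgls among them, median of the group -0.97), 2 fell in Z+ against Z- (pgd among them, median -0.68) and 2 fell in Z+ against the non-transgenic fish (pgd among them, median -0.67). In Z- against A- 0 passed, with a median of 0.07. All genes gave 4.86% that fell in A+ against A-, 5.17% in Z+ against Z- and 7.66% in Z+ against the non-transgenic fish. The count in A+ was 1 with library totals, with only these genotypes and without the 5 fish with intestinal markers, and also without A+ replicate 1 or A- replicate 2, 5 or 6. It was 2 with a replicate block and without A+ replicate 2 or 5. It was 5 with DESeq2, with voom and without Z+ replicate 5, and 6 with the vitellogenin covariate and without A+ replicate 3. Genes lower in A+ against A- over the whole table numbered 191 of 11801 with library totals and 114 of 10766 with only these genotypes. They numbered 419 of 11164 without the 5 fish, 788 of 11715 with DESeq2, 772 of 11801 with voom and 888 of 11801 with the covariate. The count in Z+ against Z- was 1 with library totals, without the 5 fish, and without Z+ replicate 3 or Z- replicate 3, 4 or 6. It was 4 without the 3 fish with vitellogenin or egg-cell counts and 5 with voom, which also gave 5 against the non-transgenic fish. Of these enzymes, pgls and pgd belong to the pentose phosphate pathway, and me1 to another NADPH-producing reaction of the cytosol.

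The malic enzyme gene me1 was lower in A+ than in A-. It was at 151 to 2609 CPM in Z+ and 109 to 422 CPM in A+, against 361 to 3648 CPM in Z- and 853 to 3814 CPM in A-. Every A+ fish lay below every A- fish, and 5 of 6 Z+ fish lay above every A+ fish, Z+ replicate 5 being the exception. For me1 the fall in A+ against A- was 3.02 (log2, SE 0.58, adjusted p = 0.00544) and the rise in Z+ against A+ was 2.35 (log2, SE 0.57, adjusted p = 0.0133), and both calls held in all 11 alternatives and all 24 fits. Against Z- the log2 fold change of me1 in Z+ was -0.68 (adjusted p = 0.439), and the interaction of 2.33 did not pass (adjusted p = 0.0990).

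The level of pgd was 150 to 484 CPM in Z+, against 244 to 956 CPM in A+, 335 to 1323 CPM in Z- and 803 to 1157 CPM in A-. For pgd the fall in Z+ was 1.38 against Z- (log2, SE 0.34, adjusted p = 0.0109) and 1.42 against the non-transgenic fish (log2, adjusted p = 0.00293), and these calls held in all alternatives and fits. Between Z+ and A+, pgd gave -0.59 (adjusted p = 0.262).

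Among the partners of Nrf2, sqstm1 encodes p62, a receptor of selective autophagy that binds Keap1 and is itself a target of Nrf2 in mammals. It was at 34.4 to 53.8 CPM in Z+ and 31.9 to 39.6 CPM in A+, against 36.5 to 192 CPM in Z- and 43.0 to 129 CPM in A-. All A+ fish lay below all A- fish, and A+ stood 2.15-fold below A- by edgeR, which passed (adjusted p = 0.0426). The interaction of sqstm1 was -0.016 (log2, adjusted p = 0.989). The steps of Z+ from Z- and of A+ from A- were thus not shown to differ for this gene. For sqstm1 the fall was 1.12 in Z+ against Z- (log2, adjusted p = 0.0357) and 0.95 in Z+ against the non-transgenic fish (log2, adjusted p = 0.0363), while Z+ against A+ gave 0.33 (adjusted p = 0.568). The calls in Z+ were lost in 7 and 8 of the 24 fits without 1 fish, where the adjusted p reached 0.105 and 0.0822, and without the 5 fish with intestinal markers (adjusted p = 0.0981 and 0.127 for sqstm1). Both were also lost with library totals, and that against the non-transgenic fish with only these genotypes in the model.

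The second zebrafish Nrf2 gene, nfe2l2b, was at 1.43 to 14.5 CPM in Z+, 2.73 to 8.61 CPM in A+, at most 1.96 CPM in Z- and 0.822 to 7.25 CPM in A-. Z+ against Z- gave 1.72 (log2, SE 0.61, adjusted p = 0.0653), and its highest Z+ fish, replicates 3 and 6, and its highest A- fish, replicate 6, were those with intestinal markers. Yet 4 of 6 Z+ fish lay above the highest Z- fish, and every A+ fish, with or without intestinal markers, lay above every Z- fish. The part of intestinal cells in the level of nfe2l2b was not tested. Bach1, which competes with Nrf2 for its sites, is encoded by bach1a and bach1b. Neither passed: bach1a was 0.16 (adjusted p = 0.583) and bach1b -0.29 (adjusted p = 0.680) in Z+ against A+, and bach1b was -0.87 (adjusted p = 0.165) in A+ against A-.

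Among the glutathione genes, mgst1.2, a microsomal glutathione S-transferase, fell in Z+ against the non-transgenic fish by 0.89 (log2, adjusted p = 0.00191) and in A+ against A- by 0.72 (log2, adjusted p = 0.0291). Both comparisons hold A- on the other side. Z- against A- gave -0.73 (log2, adjusted p = 0.0900), which did not pass by edgeR. Nor did Z+ against Z- (-0.52, adjusted p = 0.0918) or Z+ against A+ (-0.53, adjusted p = 0.0890). For mgst1.2 the call in A+ was lost without A+ replicate 1, 2 or 5 or A- replicate 3 or 5 (adjusted p of 0.0545 to 0.0752). It was also lost with no filter, with a replicate block and with only these genotypes in the model (adjusted p up to 0.0593). The level of mgst1.2 was 109 to 271 CPM in Z+, 174 to 331 CPM in A+, 172 to 335 CPM in Z- and 333 to 551 CPM in A-. For abcc2, an exporter of glutathione conjugates into bile, the level was 181 to 322 CPM in Z+, against 95.6 to 249 CPM in A+, and rose by 0.77 (log2, adjusted p = 0.0369), a call lost in 6 of 11 alternatives and 10 of 24 fits (adjusted p up to 0.182). In A+ against A-, slc3a2b, the heavy chain shared by several amino acid exchangers, fell by 1.46 (log2, adjusted p = 0.0239), a call lost with library totals, without the 5 fish with intestinal markers (adjusted p = 0.0661) and without A- replicate 4 (adjusted p = 0.0531). For pgls the fall in A+ was 0.71 (log2, adjusted p = 0.0265), and it was lost with library totals (adjusted p = 0.272), with a replicate block, with only these genotypes, without the 5 fish, and without A+ replicate 1 or A- replicate 2, 5 or 6 (adjusted p of up to 0.0704).

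The call of gstp2, a pi-class glutathione S-transferase, followed the fish with intestinal markers. It was 40.0 and 43.7 CPM in Z+ replicates 3 and 6, 7.52 and 3.73 CPM in A+ replicates 5 and 6 and 85.1 CPM in A- replicate 6, and at most 1.85 CPM in the other 19 fish. The rise in Z+ against Z- (adjusted p = 0.0396) was lost for gstp2 without Z+ replicate 3 or 6 or any 1 of the Z- fish (adjusted p of 0.0635 to 0.0794). It was also lost with library totals, no filter, a replicate block and voom (adjusted p up to 0.524). The other 4 Z+ fish were at 0.0704 to 0.140 CPM and the Z- fish at 0.0231 to 0.149 CPM, close to the level that 3 counts stand for, so no fold is given.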

How the data were processed

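The authors sequenced polyA RNA of 24 zebrafish livers and counted reads with RNAsik, which runs STAR and featureCounts, on GRCz11 plus the transgene. The deposited values are these counts per gene symbol, without normalization. The strand setting is not given in the sources used here. The sequencing run of each fish is not in the labels, and the labels do not give the sex of the fish. The study set aside outlier fish that its text does not name, so all 24 were used.

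Tests were run with edgeR 4.0.16 (TMM scaling, quasi-likelihood test), limma 3.58.1 and DESeq2 1.42.0 under R 4.3.3, with a filter of counts above 100 in at least 3 fish and a prior count of 1 in log2 CPM. The steps were tested on simulated data. Relations used 1e+05 permutations within genotypes. Members, the wider list, the tests and the alternatives were chosen with earlier results of these data known. Beyond the members, up to 4 genes of the wider list with the smallest adjusted p in each comparison, nfe2l2b and the Bach1 genes are named by rule. Results of 1 gene that the rule names are not reported here. Alternatives were another test, scaling, filter, a replicate block, a vitellogenin covariate, fewer genotypes, and leaving out fish, of which the sets of 5 and of 3 fish were chosen after seeing the data.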

Additional observations from a re-analysis of the deposited data

Results flagged for a closer look

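The level of keap1a in A+ replicate 5, 51.5 CPM, stood apart from the other A+ fish, of which the next highest had 21.9 CPM. The gap to the next fish was 0.789 of the whole range of the 6 A+ fish, above Dixon's critical value for 6 samples. This fish had a summed intestinal marker level of 1063 CPM, whose part in the value was not tested. Over 40 groups examined (10 genes in 4 genotypes) this was the 1 value found, and chance gives about 1 in 20 groups.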

How the results depend on the processing

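No direction of a call among the members turned under any alternative, and the 4 falls in Z+ against the non-transgenic fish passed in all of them. For hmox1a this says little, since no alternative left out A- replicates 3, 4 and 5 together. Against Z- alone hmox1a was -1.07 (log2, adjusted p = 0.342), and none of the 4 genes passed there by edgeR. Members called in Z+ against A+ (1 by edgeR) were 0 with a vitellogenin covariate and with only these genotypes in the model. In Z+ against Z- (0) they were 2 with DESeq2, filterByExpr or a replicate block and without the 5 fish with intestinal markers, 1 with DESeq2's size factors, a vitellogenin covariate or only these genotypes, and 3 with voom and without the 3 fish with vitellogenin or egg-cell counts. In A+ against A- (3) they were 0 with only these genotypes, and in Z- against A- (3) they were 0 with the replicate block and 1 with the vitellogenin covariate. In the interaction (0) they were 3 with DESeq2, 2 with the vitellogenin covariate, and 1 with voom and without the 3 fish. Calls over all genes moved too, and without the 3 fish 1269 of 11538 genes rose and 1128 fell in Z+ against Z-.

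Calls in the wider list in Z+ against A+ (2) were 6 with DESeq2, 7 with voom or a vitellogenin covariate, 5 without the 3 fish, and 1 with library totals, no filter or a replicate block. In Z+ against Z- (4) they were 10 with DESeq2, 9 with voom, 7 with the covariate and without the 3 fish, and 1 with library totals and without the 5 fish. Against the non-transgenic fish (4) they were 10 with DESeq2 and without the 3 fish, 12 with voom, 9 with the covariate, and 7 with DESeq2's size factors or filterByExpr. In A+ against A- (11) they were 2 with library totals, 5 with the replicate block, 3 with only these genotypes and 4 without the 5 fish. In Z- against A- (0) they were 5 with DESeq2, 2 with voom and 1 without either set of fish, and in the interaction (0) 4 with DESeq2 and 1 with the covariate and without the 3 fish. Calls over all genes moved with the same alternatives. In Z+ against Z- they were 18.3% with DESeq2 and 26.0% with voom, where edgeR gave 7.00% higher and 5.17% lower. Against the non-transgenic fish voom called 1841 of 11801 genes higher and 1582 lower, in place of 1081 and 904. In A+ against A- library totals left 353 higher and 191 lower, in place of 622 and 574. The causes were not tested.

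With 1 fish left out in turn, members called ranged from 0 to 1 in Z+ against A+, 0 to 2 against Z-, 4 to 4 against the non-transgenic fish, 2 to 4 in A+ against A-, 1 to 3 in Z- against A- and 0 to 1 in the interaction. Wider-list calls ranged from 1 to 5, 1 to 6, 3 to 12, 2 to 13, 0 to 1 and 0 to 1 in the same order.

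Signs turned only for values that passed no test. For nqo1 in Z+ against A+ the log2 fold change was 0.086 with a replicate block, 0.22 with the vitellogenin covariate and 0.057 without the 5 fish, and in A+ against A- 0.17 with voom and 0.12 without the 3 fish. For keap1b in Z+ against the non-transgenic fish it was 0.014 with voom and 0.049 without the 3 fish. For nfe2l2a in A+ against A- it was -0.095 with library totals, -0.012 with filterByExpr, -0.031 with the replicate block, -0.15 with the covariate and -0.0021 without the 5 fish. For gclc in A+ against A- it was 0.013 with the covariate, 0.16 with voom, 0.12 without the 5 fish and 0.0040 without the 3 fish, and in Z- against A- 0.055 without the 5 fish. In the interaction nqo1 was 0.015 with the covariate and prdx1 -0.54 without the 5 fish. With 1 fish left out, nfe2l2a ranged from -0.0098 to 0.38, keap1a from -0.067 to 0.57 and nqo1 from -0.17 to 0.15 in Z+ against A+, keap1b from -0.16 to 0.019 and nqo1 from -0.20 to 0.051 against the non-transgenic fish, nfe2l2a from -0.17 to 0.18, gclc from -0.13 to 0.15 and nqo1 from -0.20 to 0.11 in A+ against A-, and gclc from -0.24 to 0.052 in Z- against A-. In the interaction gclc ranged from -0.38 to 0.012, gclm from -0.24 to 0.033, nqo1 from -0.30 to 0.028 and prdx1 from -0.052 to 0.61.

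The r of prdx1 with srxn1 was 0.25 with genotype means kept, 0.32 with library totals and 0.36 without the 5 fish, and that of keap1a with keap1b was 0.69 with genotype means kept. Scaling by library totals moved the median of all genes by -0.19 in Z+ against A+, with 174 genes higher and 735 lower in place of 698 and 699, and by -0.11 against the non-transgenic fish and in the interaction. Same-numbered fish of different genotypes were not paired by the labels, which therefore give no ground for a replicate block. Of the 36 pairs, 13 correlated above 0.1, with a range of -0.45 to 0.77. These correlations cannot settle whether same-numbered fish were handled together. Depth limits srxn1, at 7 to 53 counts.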
